A study of Mus musculus with 4 samples.

Results

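The 1043 regions described here were intergenic stretches of open chromatin that ATAC-seq peaks marked in both H3.3 conditional knockout (cKO) libraries and in neither WT library of mouse bone marrow-derived macrophages (BMDMs). ATAC-seq inserts adapters into accessible DNA with the Tn5 transposase, so that a peak marks open chromatin. The peaks of the 4 deposited lists were merged where they overlapped by 1 bp or more, which gave 71243 regions, 69349 of them on autosomes. An autosomal region was kept if its centre lay outside every gene body of GENCODE vM21 (mm10) and outside promoters, which ran from 1000 bp before a transcription start site (TSS) to 100 bp after it. Of the 21010 autosomal intergenic regions, 4.96% were gained in this sense. The members were thus selected on peak presence, and their absence from the WT lists is the selection itself and not a finding.

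By the study's definition, WT mice carried H3f3a fl/fl and H3f3b fl/fl, the floxed genes for histone H3.3. The cKO mice carried the same alleles plus LysM cre/cre, in which Cre is expressed from the Lyz2 locus of myeloid cells. All mice were on a C57BL/6 background and 8 to 10 weeks old, and the study used both sexes. Bone marrow was cultured with L929-conditioned medium for 6 to 8 days. This range is the study's general culture time, and its text names a day within it for ATAC-seq. Each genotype had 2 biological replicates. Whether each library came from a mouse of its own is not given in the sources used here, and the study notes that deletion of H3f3b varied between cKO samples. The sample titles name only WT and KO, and a supplementary legend of the study gives LysM cre/+ for mutant BMDMs. The Cre zygosity of these libraries is therefore not settled. Floxed alleles were shared by all groups, whereas loss of H3.3 and the Cre insertion cannot be told apart.

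Intergenic open chromatin mostly holds enhancers and other distal elements, to which transcription factors recruit the machinery that displaces nucleosomes. H3.3 is the H3 variant that chaperones place on chromatin outside DNA replication, at active genes and enhancers and also at telomeres and pericentric repeats. In macrophages, PU.1, C/EBP and RUNX factors mark lineage enhancers, AP-1 factors (dimers of the Fos, Jun and Atf families) open enhancers after stimulation, interferon-regulated factors bind the ISRE, and CTCF marks insulators and loop anchors.

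A handful of sequences show what the members contained. Sequences are from the RefSeq genome of the mm10 build, plus strand, with the matched letters in capitals. The highest-ranked member with an AP-1 match lay on chromosome 2 (region 147743939 to 147744703), 301627 bp from the TSS of Foxa2, a forkhead factor gene. The 87 bases shown held 5 AP-1 matches (TGACTCA, or TGAGTCA on the other strand), spaced as a short tandem repeat, and the same member held an ISRE match 61 bp beyond its summit.
Foxa2 member, AP-1, chr2:147744115-147744201: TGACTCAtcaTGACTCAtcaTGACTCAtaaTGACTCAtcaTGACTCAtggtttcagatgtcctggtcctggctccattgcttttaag
Foxa2 member, ISRE, chr2:147744232-147744321: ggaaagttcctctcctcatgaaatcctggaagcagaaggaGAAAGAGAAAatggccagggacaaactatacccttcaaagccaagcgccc

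The next examples, with 1 AP-1 match each in the bases shown, are the 2 highest-ranked AP-1 members nearest to a gene of the lists described below, Ifnar2, a subunit of the type I interferon receptor, and Siglech, a lectin of plasmacytoid dendritic cells.
Ifnar2 member, AP-1, chr16:91352900-91352986: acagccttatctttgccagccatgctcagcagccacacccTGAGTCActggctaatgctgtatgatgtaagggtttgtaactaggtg
Siglech member, AP-1, chr7:55758703-55758789: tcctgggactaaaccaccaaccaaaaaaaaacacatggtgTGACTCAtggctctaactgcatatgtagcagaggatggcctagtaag

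For RUNX (AACCACA on either strand) and CTCF, the highest-ranked members with a match lay near Mdm2, the p53-degrading ubiquitin ligase, and near Ly6e, an interferon-inducible membrane protein gene. Both matches are on the minus strand and are printed as they read on the plus strand.
Mdm2 member, RUNX, chr10:117687774-117687860: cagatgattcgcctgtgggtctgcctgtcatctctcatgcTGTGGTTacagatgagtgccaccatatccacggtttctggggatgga
Ly6e member, CTCF, chr15:74919588-74919679: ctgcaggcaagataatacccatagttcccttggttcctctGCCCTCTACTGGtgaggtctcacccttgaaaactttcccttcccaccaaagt

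The last sequence shows the distal edge of a high-ranked member at a chromosome end, where the capitals mark TTAGGG, the repeat unit of telomeres. The last 120 bases of this chromosome 1 region held degenerate copies around 1 exact unit.
Chromosome 1 end member, chr1:195371498-195371617: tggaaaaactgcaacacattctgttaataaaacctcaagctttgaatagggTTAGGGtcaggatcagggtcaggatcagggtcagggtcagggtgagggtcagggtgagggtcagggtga

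The peak lists held 55742 and 64939 peaks in WT replicates 1 and 2, and 51955 and 60884 in cKO replicates 1 and 2. Read depth is unknown, so no interval for sequencing error belongs to any peak. Peaks overlapped the promoters of 9 of 10 macrophage markers in all 4 libraries, Spi1 being the exception. Of 8 neutrophil markers 2 were open in all 4 (S100a8 and Cebpe), of 4 dendritic cell markers 3 (Flt3, Zbtb46 and Siglech), and none of the T cell, B cell, mast cell, erythroid or fibroblast markers. In the H3f3a gene body 1 region was called in WT alone, and of the 2 regions in the H3f3b gene body 0 were lost. Within 5 Mb of Lyz2, members were 9 of 166 intergenic regions (5.42%), beside 4.96% over all autosomal intergenic regions. A bulk list does not tell fewer cells with an open site from a less open site in each cell.

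Most members were weak and narrow peaks that ranked higher in the cKO replicate 2 list. The authors' peak area was ranked within each list, as the percentage of the list's peaks with an equal or smaller area. In the cKO replicate 1 list the members ran from the 0.0520th to the 96.6th percentile with a median of 14.1. In the cKO replicate 2 list they ran from 0.0181 to 99.6 with a median of 25.97. The rank was higher in replicate 2 for 881 members (84.5%). The replicate 2 list was also longer, with 60884 against 51955 peaks, so that more weak peaks can lie below a region in it. Whether the higher rank goes beyond list length was not tested. Spearman's rho between the lists was 0.714 over the 1043 members, given as a description, since all points share the same libraries and the lower limit of the peak caller. The median width was 303 bp, against 513 bp for the 12238 intergenic regions called in all 4 libraries, whose median mean percentile was 52.2 against 19.8 for members.

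**Figure D1:**
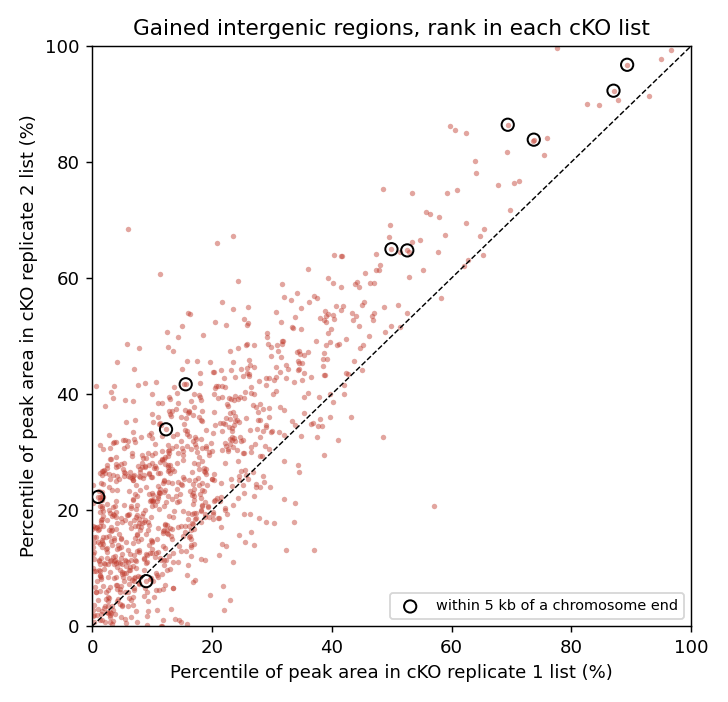
Each point is a gained intergenic region, placed by the percentile of its peak area in the cKO replicate 1 list (x, %) and the cKO replicate 2 list (y, %), with the dashed line marking equal rank and circles the 10 members within 5 kb of the last sequenced base of an autosome. Most points lie above the line and below the 50th percentile in both lists, and 73 members had a mean percentile of 50 or more.

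Many members were near the detection limit. The median member area was 272.9 in cKO replicate 1 and 358.0 in cKO replicate 2, with maxima of 3336 and 6438. The lowest member areas were 200.2 in cKO replicate 1 and 200.1 in cKO replicate 2, just above the lower limit of 200 of all 4 lists. Just outside the rule, 982 autosomal intergenic regions were called in both cKO lists and in 1 WT list, which was replicate 2 in 949 of them, with a median WT area of 262.1. A further 1507 were called in cKO alone but in only 1 list, which was replicate 2 in 1412. Without WT replicate 2 the rule found 1992 regions and without cKO replicate 1 it found 2455, while lists cut to equal length gave 1686, which 800 of the members (76.7%) overlapped.

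The 10 strongest members were mostly wide, and 5 of them held none of the 10 motifs searched. By mean percentile the first was a 3148 bp region at chromosome 12, 59039045 to 59042192, at 96.6 and 99.3 in cKO replicates 1 and 2. Its nearest protein-coding TSS, 20799 bp away, was that of Trappc6b, a vesicle tethering factor gene, and its edge ran over the small gene Gm22973. The second, 2438 bp at chromosome 9, 96329969 to 96332406, was at 94.9 and 97.8 and its centre lay 1467 bp from the gene body of Atp1b3, a subunit of the sodium pump. The fourth, 2420 bp at chromosome 5, 99215268 to 99217687, was at 92.9 and 91.3, and its centre was 948 bp outside the body of Rasgef1b, an exchange factor for Ras-like proteins that Toll-like receptor ligands induce in macrophages. Within 100 kb of the Rasgef1b TSS and nearest to it, 11 of 31 regions of all classes were gained and 0 were lost. Over all autosomal regions 3.76% were gained and 7.32% were lost.

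The sixth member, 2469 bp at chromosome 10, 117686407 to 117688875, ended at the 3′ end of the Mdm2 gene body and touched Cpm on its other side, at 87.8 and 90.6. It lies within 5 Mb of Lyz2, which carries Cre in the cKO mice. The widest member of all spanned 6418 bp at chromosome 8, 75097501 to 75103918. It began inside the body of Hmox1, the heme oxygenase gene, and its centre lay 121 bp beyond the gene. It was made of 3 peaks at up to 77.7 in cKO replicate 1 and of 1 peak at 99.6 in cKO replicate 2. The member nearest to Gpam, a glycerol-3-phosphate acyltransferase gene, was at 75.9 and 84.1 and lay 109262 bp from its TSS. The member nearest to H60c, which encodes a ligand of the NKG2D receptor, was at 82.57 and 90.0 and 150111 bp away. All of these were absent from both WT lists by the selection.

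In all, 33 members were 1 kb or wider and 7 were 2 kb or wider. The rank is by peak area, which is not scaled to peak length, so width and rank are not independent. The wide ones had a median mean percentile of 72.0, and 0 of the 33 had an AP-1 or CTCF match within 100 bp of the summit. Over all members these shares were 22.8% for AP-1 and 7.57% for CTCF. Of the 10 strongest members, 0 had an AP-1 match and 5 had none of the 10 motifs, as did 35.1% of all members. With members cut into 4 sets of equal size by mean percentile, the strongest set held more matches than the weakest for most motifs. For AP-1 it was 27.2% against 19.2%, for C/EBP 19.2% against 10.7% and for RUNX 16.9% against 12.3%. CTCF (1.92% against 13.03%), NF-kB (3.45% against 3.83%) and CRE (0% against 0.766%) went the other way. Motifs in wide regions were searched only around the summit, so letters elsewhere in them were not counted.

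Members were spread over the genome, with 213 (20.4%) within 10 kb of a protein-coding TSS, 788 within 100 kb and 255 beyond. The median distance was 34458 bp. By autosome the share of intergenic regions that were members ran from 2.89% (14 of 485, Wilson 95% interval 1.73% to 4.79%) on chromosome 19 to 7.03% (53 of 754, 5.41% to 9.08%) on chromosome 18. The centre of 123 members (11.8%) lay inside a RefSeq gene body. Members came mostly singly. Only 148 (14.2%) lay within 25 kb of another member, against 391 of the lost intergenic regions (24.7%), those called in both WT and neither cKO library, a larger set that made up 7.52% of autosomal intergenic regions.

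Of the 710 genes with a member as their nearest TSS within 100 kb, 642 had 1, 61 had 2, 4 had 3 and 3 had 4. The 4 members of Ccny, the gene for cyclin Y, lay within 20339 bp of chromosome 18 at mean percentiles of 37.2 to 87.2. In that stretch, drawn from the first to the last of these members, 8 regions were called in any library, of which 4 were gained and 0 lost. Of the 15 regions assigned to Ccny, 4 were gained and 1 was lost. The 4 members of Resf1, a retroelement silencing factor gene, lay on both sides of the gene on chromosome 6. Their percentiles were 65.5 and 68.5, 56.5 and 71.0, 29.2 and 49.8, and 2.41 and 11.8 in cKO replicates 1 and 2. Of the 22 regions assigned to Resf1, 6 were gained and 0 lost. The 4 members of Alg10b, a glucosyltransferase gene of the N-glycan pathway, had mean percentiles of 49.8, 3.51, 61.9 and 13.8.

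Genes with 3 members were Ly6e, Atp1b3, Fdx1 and Lgmn. The Ly6e members formed a run of 3337 bp on chromosome 15, at mean percentiles of 55.2, 21.1 and 13.1, with a CTCF, an AP-1 and a C/EBP match respectively. Those of Fdx1, which encodes a mitochondrial ferredoxin, were all weak at 10.1 to 12.04. Those of Lgmn, the gene for the lysosomal protease legumain, were at 51.5 and 28.5 beyond its 3′ end and at 29.2 upstream of it. Besides its top-ranked member, Atp1b3 had members at 5.34 and 30.7 and at 22.1 and 41.2 in the 2 cKO lists, and 9 of its 31 regions were gained against 1 lost.

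Motifs, repeats and GC content around the summit were not used by the selection, whereas the distance to a TSS was limited by the intergenic class, in the same way for members and for lost intergenic regions. A motif was counted when its letters occurred on any strand of the 100 bp to each side of the top-ranked peak's summit. A difference passed when its Newcombe interval, at a confidence level of 99.8% set by 26 comparisons, left out 0. Regions are the units, so the intervals describe these 4 libraries with 2 libraries per genotype.

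AP-1 matches were the clearest difference. They were found in 238 members (22.8%, Wilson 95% interval 20.4% to 25.5%), in 109 of 1581 lost intergenic regions (6.89%) and in 15.5% of all autosomal intergenic regions. The difference to lost regions was 15.9 percentage points (interval 11.5 to 20.5). Intergenic regions called in all 4 libraries were at 17.7% and the 1263 gained intronic regions at 23.8%. With members cut into 4 sets of equal size by mean percentile, the share was 19.2% in the weakest set, then 21.8% and 23.1%, and 27.2% (22.2% to 32.9%) in the strongest. It was 21.6% within 10 kb of a TSS and 23.9% beyond 100 kb, and 15.96% where the summit lay in repeat sequence against 24.3% elsewhere.

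AP-1 matches were centred on the summits. Of 343 matches within 200 bp of a member's summit, 202 (58.9%) lay within 50 bp, as did 67 of 155 (43.2%) in lost intergenic regions. The share was 54.3% in intergenic regions called in all 4 libraries and 60.9% in gained intronic regions, so the centring was not particular to members. In the 20 bp bin just after the summit there were 5.37 matches per 100 members and 1.14 per 100 lost regions. Over their whole length 276 members held an AP-1 match and 10 held 3 or more. The most, 16, were in a 717 bp member nearest to Twsg1 on chromosome 17, at percentiles 18.1 and 43.6, which was chosen for this count after its values were seen.

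**Figure D2:**
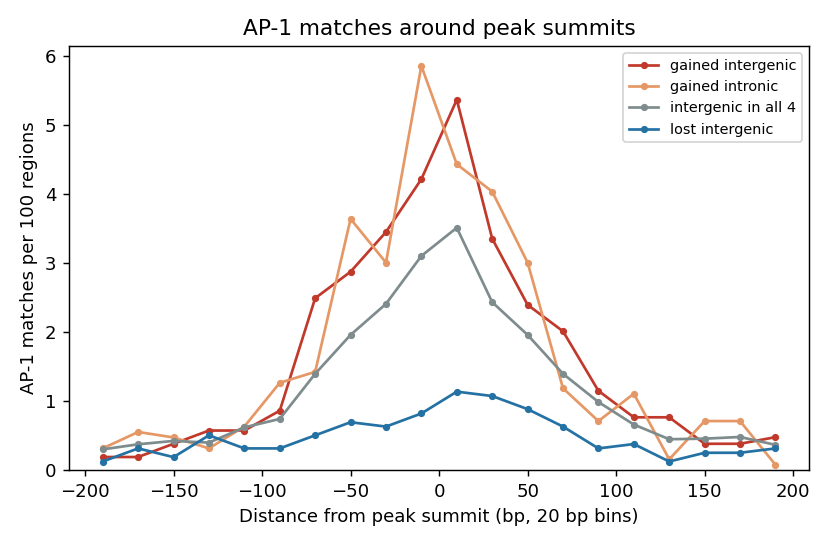
AP-1 matches per 100 regions (y) by the distance of the match from the summit (x, 20 bp bins) in gained intergenic, gained intronic, lost intergenic and shared intergenic regions. Each set is highest in a bin next to the summit. The highest values per 100 regions are 5.37 in members, 5.86 in gained intronic, 3.51 in shared intergenic and 1.14 in lost intergenic regions.

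By library, the AP-1 share of all intergenic peaks was 15.7% and 14.8% in WT replicates 1 and 2 and 17.9% and 17.3% in cKO replicates 1 and 2. The groups did not overlap. The means were 15.2% ± 0.696 in WT and 17.6% ± 0.388 in cKO (SD, n = 2 each), a difference of 2.38 percentage points (exact permutation test, two-sided, p = 0.33, the smallest value that 4 libraries allow). With gained and lost regions left out the difference was 1.13 points (exact permutation test, p = 0.33).

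CTCF and RUNX matches were also more frequent in members than in lost intergenic regions. CTCF matches were found in 79 members (7.57%, 6.12% to 9.34%) and in 2.28% of lost regions, a difference of 5.30 points (interval 2.67 to 8.38). It was 3.01 points without WT replicate 1, and it did not pass among peaks above the median area (2.53 points). Unlike AP-1, CTCF matches were commonest in the weakest members. Their share was 13.03%, 10.3%, 5.00% and 1.92% in the same order, and 5.91% over all autosomal intergenic regions. AP-1 and CTCF matches fell together in 3 members. RUNX matches were found in 141 members (13.5%, 11.6% to 15.7%) and 8.86% of lost regions, a difference of 4.66 points (interval 0.813 to 8.79), and in 9.80% of all autosomal intergenic regions. It did not pass among regions of mean percentile 10 to 40 (4.33 points).

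The other motifs did not pass, although PU.1 and NF-kB did under several alternatives. PU.1 (GAGGAAGT) was matched in 9.59% of members and 13.1% of lost regions, a difference of -3.51 points (interval -7.28 to 0.507). C/EBP (TTGCNNAA) was at 14.3% and 16.8%, NF-kB at 3.64% and 5.95%, and the ISRE at 4.22% and 5.44% (difference -1.22 points, interval -3.79 to 1.60). The E-box (CACGTG) was at 3.26% and 2.72%. The antioxidant response element (TGACNNNGC), which Bach1 and Nrf2 bind, was at 11.3% and 9.49%, and the CRE (TGACGTCA) was in 7 members and 3 lost regions. The PU.1 difference passed with lists of equal length (-4.61 points), without WT replicate 2 (-3.96) and without cKO replicate 2 (-3.75). That of NF-kB passed above the median area (-5.14 points), with equal lengths (-2.99), with protein-coding gene bodies alone (-3.59), without WT replicate 2 (-3.41) and without cKO replicate 1 (-3.35). None of the 10 motifs was matched in 366 members (35.1%) and in 46.1% of lost regions.

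Members lay farther from genes than lost regions, by a difference that did not hold under several settings. A nearest protein-coding TSS beyond 50 kb was found for 429 members (41.1%) and 34.9% of lost regions (difference 6.28 points, interval 0.296 to 12.3), and it did not pass without WT replicate 2 (4.80 points) or with lists of equal length (2.64 points). Summits in soft-masked repeat sequence were at 18.02% and 17.3% (difference 0.694 points, -3.94 to 5.53, not passing), and at 11.9% in regions called in all 4 libraries. A GC share of 50% or more around the summit was found in 26.6% of members and 30.9% of lost regions (difference -4.37 points, -9.84 to 1.27), and the difference was -6.81 and passed without cKO replicate 2.

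Set against gained intronic regions, 0 of the 12 properties compared passed. The AP-1 difference was -0.934 points (interval -6.36 to 4.59) and that of CTCF 2.35 points (-0.817 to 5.71). CTCF passed at 3.02 points without WT replicate 2 and at 3.16 without cKO replicate 2, and the GC share at -4.27 points without cKO replicate 1. These intervals leave room for differences of several points in either direction.

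**Figure D3:**
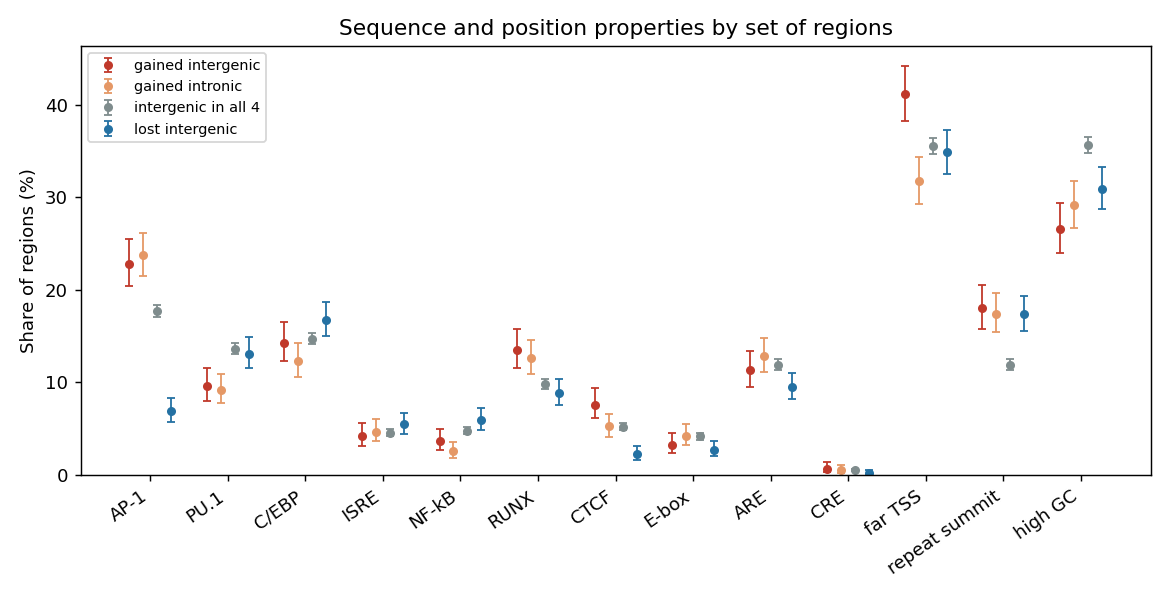
Share of regions (y, %) with each of 13 properties (x) in gained intergenic, gained intronic, shared intergenic and lost intergenic regions, with Wilson 95% intervals as bars. Members and gained intronic regions lie close together for the motifs, and the widest gap to lost intergenic regions is that of AP-1, at 22.8% against 6.89%.

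Members also lay at the ends of chromosomes, a pattern chosen after its values were seen and given without a test. Within 5 kb of the last sequenced base, 10 of 19 autosomes had a member (chromosomes 1, 5, 6, 7, 12, 13, 14, 16, 18 and 19). Counting regions of any class, WT replicates 1 and 2 had a peak in this stretch at 1 and 1 autosome, cKO replicate 1 at 11 and cKO replicate 2 at 16. In WT the end was that of chromosome 12, at percentiles 24.7 and 32.1, in a region next to the member. The end members were at mean percentiles from 8.40 on chromosome 19 to 93.0 on chromosome 14, with percentiles of 89.3 and 96.8 there and of 87.0 and 92.3 on chromosome 1. Chromosome 3 had a peak at 86.75 and 91.1 in the cKO libraries and none in WT, but it was not of the intergenic class.

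Within 100 kb of the last base lay 0.959% of members (Wilson 95% interval 0.522% to 1.76%), 0.0633% of lost intergenic regions, 0.0792% of gained intronic regions, 0.0490% of intergenic regions called in all 4 libraries and 0.143% of all intergenic regions. All 10 of these members were within the last 5 kb. They held between 0 and 9 exact TTAGGG units, and their soft-masked repeat content ran from 4.33% to 63.7%. The count of ends was 15 without cKO replicate 1, 10 without any other library, 9 with lists of equal length and 5 when only the stronger part of each list, above its median area, was kept. How the authors treated reads that map to several places is not given in the sources used here.

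**Figure D4:**
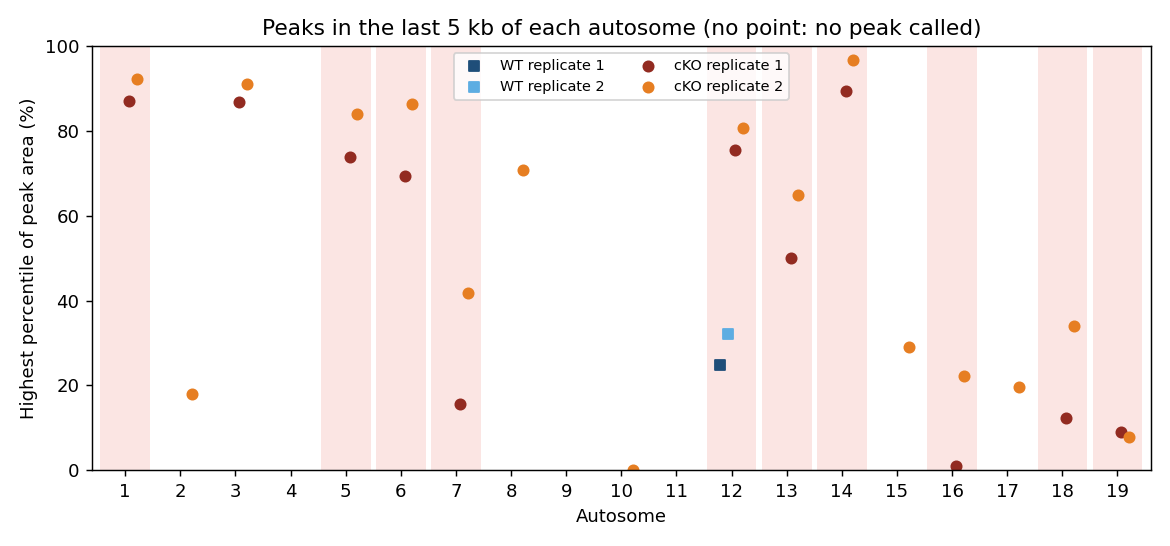
Highest percentile of peak area (y, %) in the last 5 kb of sequence of each autosome (x) in the WT (squares) and cKO (circles) libraries, with no point where no peak was called and shading where a member lies. WT points appear on chromosome 12 alone, and cKO points on 16 autosomes.

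Open regions shared by all 4 libraries ranked higher in cKO near members. These were not used by the selection, although they come from the same libraries. Of the 43706 autosomal regions called in all 4, 483 had their centre within 5 kb of that of a member. Their cKO minus WT difference in mean percentile had a median of 2.40 (quartiles -2.00 and 11.5), and 309 (64.0%) were higher in cKO. At 5 to 25 kb the median was 0.139 and at 25 to 100 kb it was -0.304. Beyond 100 kb it was -1.34, with 40.5% higher. Over all shared regions the median was -1.13, so the percentiles of shared regions sat slightly lower in cKO. Near lost intergenic regions the direction was the opposite, with a median of -5.21 within 5 kb and 25.9% higher. No test was made, since neighbouring regions are not independent.

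**Figure D5:**
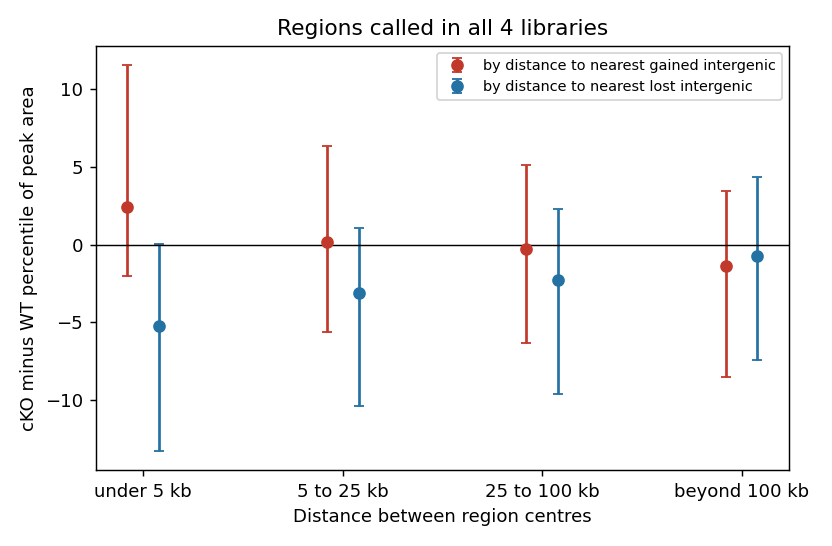
Median cKO minus WT difference in mean percentile of peak area (y) of autosomal regions called in all 4 libraries, by their distance to the nearest gained (red) or lost (blue) intergenic region (x), with bars from the lower to the upper quartile. The median falls from 2.40 to -1.34 with distance from members and rises from -5.21 to -0.721 with distance from lost regions, and the quartiles overlap throughout.

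To ask which genes the members lay near, 13 lists with 435 genes were read against all genes. Of 6739 protein-coding genes that were nearest to any autosomal intergenic region within 100 kb, 10.5% had a member and 15.7% had a lost intergenic region. Antiviral interferon-stimulated effectors were at 8 of 35 (22.9%), and 2 of the 35 had a lost intergenic region. They were Ifit3, Ifi44l, Mx1, Oasl1, Ifi209, Irgm2, Irgm1 and Zbp1. The Ifit3 member, 769 bp wide and 6106 bp from the TSS of this antiviral gene, was at 28.5 and 33.7 in cKO replicates 1 and 2. Its nearest gene body was that of Ifit2, 1006 bp away. The Ifi44l member was at 28.0 and 29.3 and held a C/EBP and a CTCF match, and the 2 regions assigned to Ifi44l were both gained. The member of Mx1, a dynamin-like antiviral GTPase gene, was at 3.71 and 41.4, and 5 of its 14 regions were gained. The other 5 were weaker, with mean percentiles of 11.4 to 15.99. The gene body nearest to the Oasl1 member was that of Oasl2 (1639 bp) and for the Zbp1 member that of Pmepa1 (194 bp). For the antiviral members other than these and that of Ifit3, it was the named gene. Of the 8 members, 0 had an ISRE match within 100 bp of the summit, beside 4.22% of all members. So few members cannot tell 0 from that share. The Ifi209 member had an AP-1 match. The number of these genes with a member was 1 when only peaks over the median area were kept. It was 12 with equal lengths, without WT replicate 2 or without cKO replicate 1. When any gene within 100 kb was counted it was 21, but there a member can count for several neighbouring genes. No share of all genes is given for these settings.

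Interferon sensors, signalling and transcription factors were at 2 of 20 (10.0%). The member of Jak2, the kinase of the interferon gamma receptor, was at 43.7 and 45.7, and that of Ifnar2 at 29.4 and 48.7. This number was 4 without cKO replicate 1. Chemokines and cytokines were at 5 of 30 (16.7%), with 8 of the 30 having a lost region. The Il12b member, 17506 bp from the TSS of this interleukin-12 subunit gene, was at 34.2 and 47.2. The Ccl4 member was at 17.9 and 39.8 and the member of Csf1, the macrophage growth factor gene, at 23.0 and 31.4 with an AP-1 match. Il1a and Cxcl2 were the others. The number was 9 without WT replicate 2 and 10 without cKO replicate 1.

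Macrophage identity and surface genes were at 4 of 33 (12.1%) with a member and 6 with a lost region. The member of the scavenger receptor gene Msr1 was at 44.6 and 58.4, that of Cd36 at 25.6 and 40.3 and that of the Fc receptor gene Fcgr3 at 19.8 and 31.6. The number was 10 without WT replicate 2 and 11 without cKO replicate 1. Osteoclast and cell fusion genes were at 2 of 15 (13.3%), with Acp5, the gene for tartrate-resistant acid phosphatase, at 31.4 and 43.8 and the integrin gene Itgav at 8.04 and 25.7. Lysosome and phagocytosis genes were at 0 of 17, with 5 having a lost region. Lipid and cholesterol genes were at 1 of 21 (4.76%), the lipid droplet gene Plin2 at 1.33 and 9.53. Without WT replicate 2 and without cKO replicate 1, osteoclast genes with a member numbered 4 and 4, lysosome genes 1 and 2, and lipid genes 5 and 3.

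Of AP-1 and related bZIP factors, 2 of 17 (11.8%) had a member. They were Bach1, a heme-responsive repressor, with an AP-1 match at 15.9 and 54.0, and Atf3, a stress-induced factor, at 8.75 and 18.3. In this list 7 of 17 genes had a lost region, and the number with a member was 5 without cKO replicate 1. p53 targets and DNA damage genes were at 3 of 21 (14.3%), with Mdm2 as above, the stress sensor gene Sesn2 at 18.7 and 26.7 and Zmat3 at 1.88 and 17.3. Cell cycle and replication genes were at 3 of 21 (14.3%), with Cdk1 at 35.4 and 39.5, the helicase subunit gene Mcm5 at 11.3 and 23.0 and Ccnd1 at 16.6 and 15.1. Survival and death genes were at 1 of 12 (8.33%), which was Mcl1 at 5.37 and 9.13 with an AP-1 match. Without WT replicate 2 and without cKO replicate 1, p53 and DNA damage genes with a member numbered 5 and 7, and cell cycle genes 6 and 5.

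Among H3.3 genes and histone chaperones, 1 of 3 had a member, Nasp, a chaperone of free H3 and H4, at 41.2 and 48.6. Lymphoid and other non-macrophage genes were at 2 of 12 (16.7%), with Siglech at 30.3 and 42.5 and Ly6g, a neutrophil surface gene, with members at 30.3 and 17.8 and at 5.38 and 26.5. Ly6g had 2 regions in all and both were gained. Of the 8 neutrophil marker promoters 3, 3, 3 and 4 were open in WT replicates 1 and 2 and cKO replicates 1 and 2, and whether other cells took part in the Ly6g members was not tested. Over all lists 34 of the 435 listed genes had a member. Not all of the 435 were nearest to an intergenic region, so this count cannot be set beside the 10.5% of all genes. The number was 62 without WT replicate 2 and 68 without cKO replicate 1. The gained set itself grew from 1043 to 1992 and 2455 regions in these settings. The share of all genes with a member is given for the main rule alone. The higher counts of these and the single lists therefore cannot be told from a larger gained set. A nearest TSS is not evidence that a region acts on that gene.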

How the data were processed

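ATAC-seq peak lists of 2 WT and 2 cKO libraries were analysed, grouped by sample title. Reads were aligned to mm10 with Bowtie2 2.5.1 and peaks called per library with Genrich (submitters' processing notes). Read filters, duplicate removal and Tn5 shift are not given in the sources used here. The deposited signal column is Genrich's area under the significance curve, at least 200 in each list. It depends on depth and was used only as a percentile within its list. The deposited −log10 p-value column and the deposited score column, the latter the same area scaled to peak length and limited to a maximum, were not used for any comparison.

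Merging and counting used Python 3.11.15 (pandas 2.3.3, numpy 2.4.6) with GENCODE vM21 basic genes (55450) and the RefSeq mm10 sequence. NF-kB, CTCF and ISRE motifs allowed ambiguous letters. Scripts were tested on simulated data. The members and gene lists were chosen with earlier results of these data known. Genes named are those nearest to the 10 strongest members, those with 3 or more members, up to 3 genes per list with their values, and those whose sequences are printed. The remaining listed genes with a member, Lyz2, Gm22973, Cpm, Twsg1, Ifit2, Oasl2 and Pmepa1 were added after their values were seen. Alternatives covered list length, peak threshold, overlap, gene classes, motif window, GC, strength and leaving out libraries. Some items are not reported here.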

Additional observations from a re-analysis of the deposited data

How the results depend on the processing

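The AP-1 excess of gained over lost intergenic regions passed under all 16 alternatives, from 11.4 to 22.2 percentage points. Several of these settings select both sets again, so they do not all describe the 1043 members. The 22.2 points came from peaks above the median area. The gained sets without single libraries hold all members by construction, so they are not independent of the main result. The RUNX difference passed in all but regions of mean percentile 10 to 40 (4.33 points), and that of CTCF in all but peaks above the median area (2.53) and the replicate block. The TSS distance was the least stable, with 0.0775 points above the median area, 2.64 with equal lengths, 3.69 with an overlap of at least 50% and 4.52 in regions of GC share 0.4 to 0.55, none of which passed. The number of gained intergenic regions was 507 when each list kept only its peaks of more than the median area. In that setting a weak WT peak no longer counts, and 49 of the 1043 members overlapped a gained region. The number was 1686 with equal lengths, and between 1076 and 2455 without single libraries. Genes of the lists with a member numbered 63 with equal lengths, 75 when any gene within 100 kb was counted, and from 34 to 68 without single libraries. No share of all genes is given for these settings. Between 0 and 1 property passed against gained intronic regions without single libraries.

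The replicate numbers were not shown to pair the samples, since there are only 2 pairs. The difference between replicates 1 and 2 in WT and that in cKO correlated at 0.290 over 43706 shared regions. With the replicate block, that is with gained and lost regions called within each number, a mean of 2322 regions were gained, CTCF no longer passed (3.95 points), and NF-kB (-2.69) and the GC share (-4.83) passed. AP-1 was at 18.3% of gained and 8.38% of lost regions within number 1 and at 20.5% and 6.92% within number 2.

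Differences that changed sign were all small and did not pass. Against lost intergenic regions they were, above the median area, ISRE (1.27), E-box (-0.973) and repeat summits (-0.767), repeat summits also with a promoter of 2500 bp on both sides (-0.477), with RefSeq gene bodies, added after seeing the data (-0.105) and at percentiles 10 to 40 (-0.581), and without single libraries E-box (-0.110 to 0.762), ISRE (-1.71 to 0.306) and repeat summits (-0.628 to 2.54). Against gained intronic regions they were, above the median area, PU.1 (-0.408), NF-kB (-0.635), RUNX (-1.04) and the antioxidant element (0.774), ISRE with equal lengths (0.159), without single libraries (-0.298 to 0.384) and with the replicate block (0.258), PU.1 (-0.511) and repeat summits (-0.273) with the wider promoter, CRE with RefSeq gene bodies (-0.0403), without single libraries (-0.121 to 0.195), in a 50 bp window (-0.108) and with the replicate block (-0.0149), NF-kB in a 50 bp window (-0.112), and RUNX (-0.798) and repeat summits (-0.952) at percentiles 10 to 40. The cause of these changes was not tested.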

Other observations

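On chromosome X 23 further intergenic regions had peaks in the 2 cKO lists and none in the WT lists. They are not among the 1043 autosomal members and were not described further.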
